A study of Danio rerio with 12 samples.

Results

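Zebrafish embryos of the AB strain were profiled at 24 hours post fertilization (hpf), when somites, eye, hatching gland and a beating heart are in place and the embryo still feeds on its yolk. Fed wild-type females gave the eggs, which were fertilized in vitro with sperm from males that had been either fed or starved. Each of the 12 libraries, read from the 3′ ends of polyadenylated RNA, was made from 1 to 3 whole embryos of a clutch. The labels give each library a number code, and code 1242 was taken as the 4 libraries whose description starts with that number, of 12 libraries in all. Of these 4, 1242FD and 1242FE came from offspring of fed fathers, and 1242SD and 1242SE from offspring of starved fathers. The other 8 libraries carry the codes 1118, 1203, 1210 and 1219, and each of these codes holds 1 library from offspring of a fed father (F) and 1 from offspring of a starved father (S). The labels do not say what the number stands for, what the letters D and E mark, or whether the libraries of a code share a father, a mother, a clutch or a day of work. Code 1242 and anything that was particular to it therefore cannot be told apart.

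Embryos that share a clutch share a mother's egg contents and yolk, and a clutch develops at its own pace, so libraries of one collection can resemble each other for many genes at once. At this stage fast muscle, lens and neurons add transcripts quickly, while hatching gland and yolk syncytial layer, the tissue that moves yolk nutrients into the embryo, are prominent early on. Whole-embryo RNA follows both the cells present and the transcripts in each cell, and these data cannot tell fewer cells of a type from less RNA per cell. The comparison asked how the transcriptome of code 1242 differed from that of the other codes once the fathers' feeding was allowed for.

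Code 1242 held 3283777 to 3934765 reads per library and the other codes held 2950740 to 3723373, as recovered from the deposited values. A value below is a read count divided by the size factor of its library. A difference is the mean log2(value + 1) of code 1242 minus that of the other codes, adjusted for the father group, so it understates the change of low genes. The mitochondrial large ribosomal RNA alone took 48.7% of the reads in 1242FD, 46.4% in 1242FE, 46.7% in 1242SD and 35.5% in 1242SE, against 27.0 to 44.8% in the other codes. Its share averaged 44.3% ± 5.98 in code 1242 (SD, n = 4) and 37.6% ± 5.42 in the other codes (SD, n = 8). The difference of 6.74 percentage points did not pass a two-sided exact permutation test (p = 0.0578, 225 arrangements, smallest possible p 0.00444). That test moved the label 1242 over single libraries within father groups. It did not move whole codes, so it treats libraries of a code as independent. Markers of muscle, lens, blood, yolk syncytial layer, notochord, epidermis, neurons and pigment cells were present in both groups, while none of the 7 markers of adult or maternal tissue was listed. The summed value of the 6 fast muscle markers ran over 1790 to 4530 in code 1242 and over 1340 to 6450 in the other codes. The summed value of the 6 yolk syncytial layer markers ran over 1480 to 6440 in code 1242 and over 871 to 4190 in the other codes. No pair of libraries within a code looked like one library deposited again.

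The 4 libraries of code 1242 did not lie closer to each other than to libraries of other codes. Over the 4114 genes with a mean value of at least 20, the median absolute log2 difference between a pair of libraries was 0.302 to 0.496 within code 1242 (median 0.363, 6 pairs). Between a library of code 1242 and one of another code it was 0.243 to 0.56 (median 0.307, 32 pairs). Within the other codes, where each pair sets a fed father's offspring against a starved father's, it was 0.219 to 0.297 (median 0.277, 4 pairs), and between libraries of 2 different other codes it was 0.224 to 0.507 (median 0.33, 24 pairs). None of the 4 had another library of code 1242 as its nearest neighbour. The nearest library to 1242FD was 1219F at 0.292, that to 1242FE was 1203F at 0.243, that to 1242SD was 1118S at 0.278 and that to 1242SE was 1118F at 0.26. These pairs share libraries, so the distances are a description and were not tested.

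**Figure D1:**
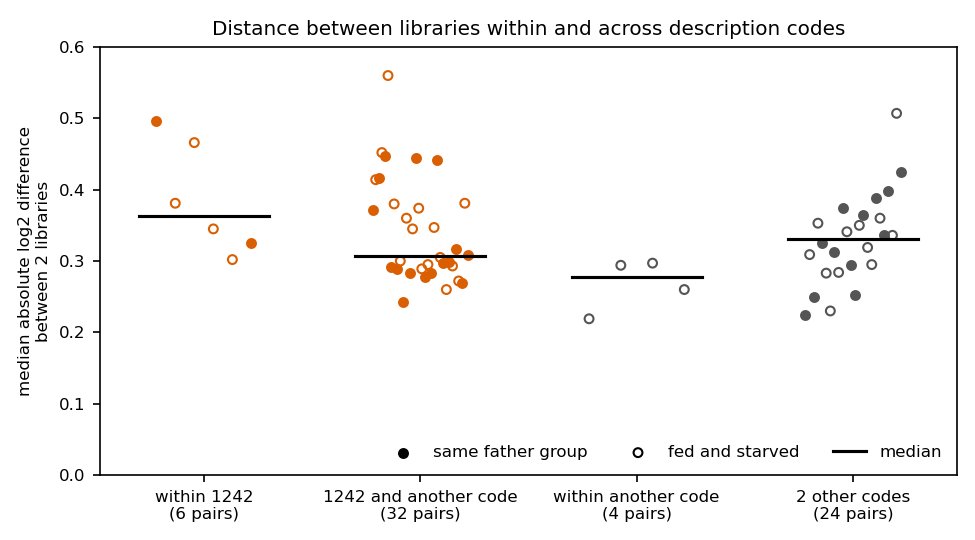
Each point is a pair of libraries, placed by the median absolute log2 difference over 4114 genes (y axis) and by whether the pair lies within code 1242, between code 1242 and another code, within another code or between 2 other codes (x axis); filled points share the father group, open points do not, and the bar is the median. The 6 pairs within code 1242 (median 0.363) lie no lower than the 32 pairs between code 1242 and another code (median 0.307), while the 4 pairs within other codes lie at 0.219 to 0.297.

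The 4 libraries of code 1242 were spread along the main axes of variation. On the first principal component, which held 37.4% of the variance, 1242FD lay at 28.9, while 1242FE lay at -10.9, 1242SD at 4.0 and 1242SE at -10.1. Both libraries of code 1219 lay on the side of 1242FD, at 28.2 for 1219F and 13.9 for 1219S, and the remaining 6 libraries of other codes lay between -23.9 and 1.0. On the second component 1242SD lay at 15.2 beside 1203S at 20.1, while 1242FD lay at -1.8, 1242FE at -2.8 and 1242SE at -9.6. Fast muscle, lens and neuronal transcripts were low in 1242FD, and yolk, lysosome and hatching gland transcripts were high in it, as described for these groups below. Where a printed list median changed sign without 1242FD, the value without it stands beside it.

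No gene passed the test of code 1242 against the other codes. In limma with Benjamini-Hochberg adjustment over 13680 genes, 0 genes were called at 0.05, and no adjusted p was smaller than 0.536. An unadjusted p below 0.05 was reached by 416 genes, or 3.04% of those tested, of which 241 (1.76%) were higher and 175 (1.28%) lower in code 1242. The 416 are fewer than the 684 genes that make up 5% of the table, but the count was 747 without code 1219, 813 with the mitochondrial ribosomal RNA share as a covariate and 884 with the D libraries alone, still with 0 genes called in each. On the recovered reads, edgeR called 0 genes (330 at an unadjusted p below 0.05), limma-voom called 0 (432) and DESeq2 called 1 (420), the gene stard14. The libraries of a code are not independent samples of codes. With the code as a random block, limma called 0 genes and the number at an unadjusted p below 0.05 was 172. A permutation over whole codes could not have gone below p = 0.2 with 5 codes.

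The width of the intervals sets what these 12 libraries could have shown. The 95% interval of the difference had a median half-width of 0.71 on the log2 scale over all genes, 0.46 for genes with a mean value of 20 to 100 and 0.36 for genes with a mean of at least 100. It lay wholly within a 2-fold change in either direction for 7813 of 13680 genes (57.1%). Among genes with a mean value of 20 to 100 this held for 2978 of 3150 (94.5%), and with a mean of at least 100 for 922 of 964 (95.6%). The median difference over all genes was 0.02. For most abundant genes a 2-fold difference between code 1242 and the other codes thus lay outside the unadjusted interval, while for low genes it often lay inside. These p-values and intervals measure the spread between libraries. The labels do not say which libraries share a father, a mother or a clutch, or whether D and E libraries came from separate embryos.

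The smallest p belonged to stard14, a gene of the START-domain family of lipid-binding proteins (ENSDARG00000031929, GRCz11 chromosome 14, 33270387 to 33278084). It had 38.2, 27.0, 34.3 and 17.3 in 1242FD, 1242FE, 1242SD and 1242SE, against 6.25 to 15.7 (median 9.17) in the other codes. All 4 libraries of code 1242 lay above all 8 others. The difference was 1.51 ± 0.29 (SE; limma adjusted p = 0.536), with 1.74 among fed fathers' offspring and 1.27 among starved fathers' offspring. DESeq2 gave a difference of 1.58 with an adjusted p of 0.00642. Over the alternatives the difference was 1.15 to 1.86, and the adjusted p ran from 0.00642 to 1.0. The counts behind it were 74 to 102 reads per library in code 1242 and 22 to 50 reads in the other codes.

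The other 7 named genes with the smallest p on the higher side did not pass (limma adjusted p = 1.0 for each). The gene comp, which encodes a matrix protein of cartilage and tendon, had 70.8, 78.7, 67.6 and 77.3 in 1242FD, 1242FE, 1242SD and 1242SE, against 40.3 to 60.5 (median 47.8) in the other codes. The groups did not overlap, and the difference was 0.56 ± 0.17 (SE). The gene ccng1 encodes cyclin G1 and had 232, 119, 99.5 and 115 in the same order, against 56.2 to 140 (median 80.1) in the other codes. Its value in 1242FD was the highest of the 12, the groups overlapped, and the difference was 0.68 ± 0.22 (SE), or 0.46 without 1242FD. The RNA-binding protein gene rbm14b had 15.3, 18.2, 22.6 and 16.1, against 3.37 to 17.4 (median 7.43) in the other codes. The groups overlapped, and the difference was 1.01, with 0.34 among fed fathers' offspring and 1.68 among starved fathers' offspring.

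Of the same 7, pde10a (a phosphodiesterase of cyclic nucleotides), eif3hb (a subunit of translation initiation factor eIF3) and itga10 (an integrin alpha chain) were low genes. The gene pde10a had 3.5 to 5.99 in code 1242 and 0.0 to 3.63 in the other codes, a difference of 1.38. The values of eif3hb were 2.05 to 3.74 in code 1242 and 0.0 to 2.37 in the other codes, a difference of 1.33. Those of itga10 were 2.8 to 4.99 in code 1242 and 0.0 to 4.82 in the other codes, a difference of 1.45. The groups overlapped in all 3 genes, and several of the 8 other libraries had no read of eif3hb or itga10. The histone H2A gene hist1h2a4 had 0.75 and 5.28 in 1242FD and 1242FE, 17.5 and 17.3 in 1242SD and 1242SE, and 0.0 to 2.71 in the other codes. Its values in 1242SD and 1242SE stood above the rest and that in 1242FE less so, while 1242FD lay within the other codes' range. Its reads may be shared with near-identical histone copies.

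The 8 named genes with the smallest p on the lower side did not pass either (limma adjusted p = 1.0 for each). The gene aebp1, which encodes a secreted matrix protein, had 5.61, 8.51, 9.61 and 9.34 in 1242FD, 1242FE, 1242SD and 1242SE, against 14.8 to 27.7 (median 16.9) in the other codes. All 4 lay below all 8 (difference -1.05 ± 0.25, SE). The gene cfp encodes properdin, a factor of the complement system, and had 18.3, 10.6, 14.1 and 18.9 in the same order, against 13.1 to 48.5 (median 34.2) in the other codes. The lone overlap came from the lowest of the 8, 1210F, and the difference was -1.03 ± 0.27 (SE). The gene mcm6, a subunit of the helicase that opens DNA for replication, had 127, 178, 189 and 239, against 203 to 314 (median 276). Only 1242SE reached into the range of the other codes, and the difference was -0.56 ± 0.16 (SE).

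The lactate dehydrogenase gene ldha was also among these 8 and is given with glycolysis. The kinase gene map3k14a, which acts in noncanonical NF-kappaB signalling, had 2.25 to 5.49 in code 1242 and 5.7 to 12.8 in the other codes, a difference of -1.07. The epidermal transcription factor gene grhl3 had 1.17 to 3.74 in code 1242 and 2.97 to 11.6 in the other codes, a difference of -1.23. The calcium channel gene cacna1ha had 0.34 to 3.52 in code 1242 and 1.65 to 6.28 in the other codes, a difference of -1.28. The sulfatase-activating enzyme gene sumf1 had 1.17 to 2.06 in code 1242 and 2.17 to 8.13 in the other codes, a difference of -1.18. Of these 4 low genes, map3k14a and sumf1 had ranges that did not overlap, and sumf1 rested on 4 to 6 reads per library in code 1242.

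**Figure D2:**
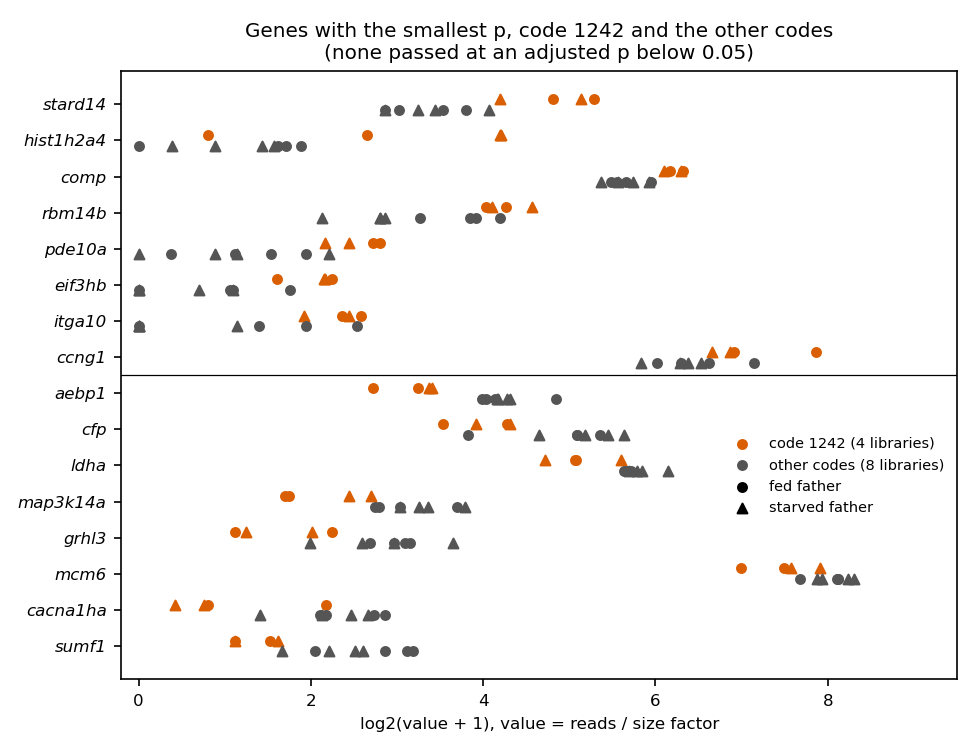
Values of the 16 named genes with the smallest p, 8 higher (top) and 8 lower (bottom) in code 1242, on a log2(value + 1) scale; each point is a library, orange for code 1242 (4) and grey below it for the other codes (8), circles for fed and triangles for starved fathers. The 4 orange points of stard14 (17.3 to 38.2) lie above all grey ones, and those of aebp1 (5.61 to 9.61) and ldha (25.4 to 47.7) below them, while most other genes overlap.

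Genes in which the 2 sets of libraries did not overlap were rare. All 4 libraries of code 1242 were higher than all 8 others in 25 genes (0.183%) and lower in 13 (0.095%), together 38 genes (0.278%). Of the 38, 31 carry a gene name, 12 had a mean value under 5, and 10 had a mean of at least 20. A further 6 of these 10 are named here, chosen after their values were seen, and none passed the limma test (adjusted p = 1.0 for each). The histone methyltransferase gene kmt2bb had 117 to 148 in code 1242 and 83.9 to 115 in the other codes (difference 0.36). The gene pnisr, whose product is a serine- and arginine-rich nuclear protein, had 87.6 to 100 in code 1242 and 61.6 to 84.9 in the other codes (difference 0.33). The glucosidase II beta subunit gene prkcsh, which acts in folding of glycoproteins, had 40.1 to 59.5 in code 1242 and 25.7 to 39.2 in the other codes (difference 0.49). On the lower side, nucks1a, which encodes a chromatin-associated phosphoprotein, had 602 to 764 in code 1242 and 805 to 1100 in the other codes (difference -0.32). The RNA-binding protein gene igf2bp3 had 175 to 221 in code 1242 and 224 to 300 in the other codes (difference -0.3). The gene ezra, which encodes an ezrin that links membrane to actin, had 14.8 to 21.7 in code 1242 and 23.1 to 37.4 in the other codes (difference -0.56). These were differences of well under 2-fold, and in most of them the nearest libraries of the 2 sets lay close together.

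Across 50 gene lists of pathways and cell types with at least 5 measured members, 24 had a median difference above 0, 24 below 0 and 2 at 0. The median was smaller than 0.2 in size in 44 of them, beside a median of 0.02 over all genes. No member of any list passed the limma test at an adjusted p below 0.05. A list score below is the mean over members of log2 values centred per gene, so 0 is the average library.

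Glycolysis, the pathway that splits glucose into pyruvate and, with lactate dehydrogenase, lactate, had mostly lower values in code 1242. Of 34 measured genes 7 were higher and 27 lower, with a median difference of -0.17, with -0.19 among fed fathers' offspring and -0.22 among starved fathers' offspring. At an unadjusted p below 0.05, 6 were lower, set against 1.28% of all genes, and 1 was higher, set against 1.76%. The list score was -0.14, -0.19, -0.24 and 0.04 in 1242FD, 1242FE, 1242SD and 1242SE and -0.2 to 0.3 in the other codes, so the groups overlapped, with the 2 libraries of code 1219 among the low ones. The median stayed below 0 under every alternative tried, between -0.37 and -0.08. Paralogs share sequence, and counts of such pairs are less certain where reads could match both.

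The members of glycolysis stand in the order of the pathway. The hexokinase gene hk1, which traps glucose in the cell, had 43.0 to 60.0 in code 1242 and 54.6 to 79.9 in the other codes (difference -0.37). The next enzyme, glucose phosphate isomerase gpia, had 10.5, 12.03, 18.5 and 28.5 in 1242FD, 1242FE, 1242SD and 1242SE, against 20.1 to 35.6 (median 27.0) in the other codes. Only 1242SE lay within the other codes' range, and the difference was -0.67 ± 0.23 (SE). The triose phosphate isomerase gene tpi1b had 62.5, 47.5, 67.2 and 82.5, against 73.5 to 103 (median 94.2) in the other codes, a difference of -0.5 ± 0.17 (SE). Again 1242SE was the one that overlapped. The enolase gene eno1a had 21.7 to 65.7 in code 1242 and 45.1 to 81.0 in the other codes (difference -0.57, or -0.33 without 1242FD). Over the alternatives its difference was -1.09 to -0.04. The pyruvate kinase gene pklr had a difference of the other sign, with 44.5, 11.4, 15.09 and 18.7 in code 1242, against 4.34 to 26.4 in the other codes (difference 1.02, or 0.68 without 1242FD).

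The gene ldha, whose enzyme turns pyruvate into lactate (ENSDARG00000101251, GRCz11 chromosome 25, 25123385 to 25131755), had 32.6, 32.9, 25.4 and 47.7 in 1242FD, 1242FE, 1242SD and 1242SE, against 48.8 to 69.9 (median 51.2) in the other codes. All 4 lay below all 8, with 1242SE just under the lowest of them, and the difference was -0.65 ± 0.19 (SE; limma adjusted p = 1.0). The lactate transporter gene slc16a3 had 1.47 to 4.21 in code 1242 and 2.2 to 11.2 in the other codes (difference -1.0). The hypoxia list, which shares ldha and hk1 with glycolysis, had a median of -0.11 over 18 genes. Its other members at an unadjusted p below 0.05 did not share a direction. The gene pfkfb4b, a regulator of glycolytic flux, had a difference of -0.68, while the vessel growth factor gene vegfaa had 9.26 to 18.0 in code 1242 and 3.69 to 9.94 in the other codes, a difference of 0.84.

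**Figure D3:**
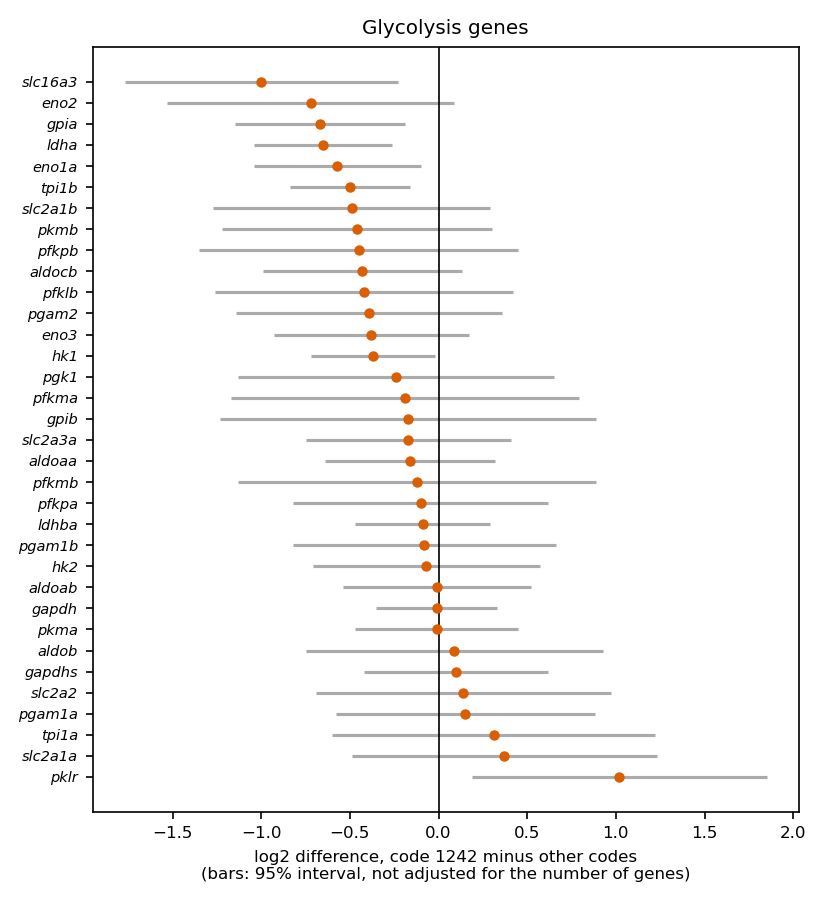
Log2 difference of each of the 34 measured glycolysis genes, code 1242 minus the other codes (x axis), with its unadjusted 95% interval, ordered by size from top to bottom. 27 points lie below 0 and 7 above, 6 intervals lie wholly below 0 and 1 (pklr) wholly above, and none passed after adjustment over all genes.

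Within code 1242, the lowest fast muscle and lens scores were those of 1242FD. Fast muscle genes had a median difference of -0.19, with 31 of 35 lower and none at an unadjusted p below 0.05. The fast muscle score was -1.01 in 1242FD, 0.12 in 1242FE, 0.08 in 1242SD and 0.27 in 1242SE, against -1.61 to 0.82 in the other codes, where 1219F and 1219S were at -1.61 and -0.88. Without 1242FD the median was 0.07, with the 2 libraries of code 1219 left out it was -0.67, and with the mitochondrial ribosomal RNA share as a covariate it was 0.3. The actin gene acta1a had 184, 246, 340 and 290 in 1242FD, 1242FE, 1242SD and 1242SE, against 227 to 365 in the other codes (difference -0.28). The calcium-buffering parvalbumin gene pvalb4 had 9.36 to 24.1 in code 1242 and 7.55 to 57.1 in the other codes (difference -0.79). Lens crystallins had a median of -0.25, with 21 of 24 lower, with -0.45 among fed fathers' offspring and 0.02 among starved fathers' offspring. Their score was -0.91 in 1242FD and -0.21 to 0.28 in the other 3 libraries of code 1242, against -1.82 to 1.17 in the other codes. Every library of code 1242 scored below all libraries of codes 1118, 1203 and 1210, which lay at 0.35 to 1.17. The overlap came from 1219F and 1219S, at -1.82 and -1.53. Without 1242FD the lens median was 0.01, with code 1219 left out it was -0.92, and with the ribosomal RNA covariate it was 0.45.

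Neuronal function genes had a median of -0.24 with 27 of 36 lower. That median was 0.01 without 1242FD, 0.08 with the ribosomal RNA covariate and -0.38 without code 1219. The score of 1242FD, -0.62, lay below those of 1242FE, 1242SD and 1242SE at -0.1 to 0.25, against -0.59 to 0.36 in the other codes. The microtubule regulator gene stmn1b had 44.9, 51.4, 52.8 and 57.9 in 1242FD, 1242FE, 1242SD and 1242SE, against 52.7 to 92.3 (median 69.8) in the other codes. Its difference of -0.42 held in all 4 libraries against the other codes' mean, and the groups overlapped at 1118F and 1219F. The Notch-responsive gene her6 had 28.2 to 39.7 in code 1242 and 31.5 to 95.2 in the other codes (difference -0.52). Neural progenitor genes as a list had a median of -0.1 and proneural genes one of -0.06, or 0.01 and 0.07 without 1242FD. Of 32 proneural genes, 1 was higher at an unadjusted p below 0.05 and 0 were lower, set against 1.76% and 1.28% of all genes. That gene, ebf3a, had 28.8 to 47.8 in code 1242 and 15.7 to 45.2 in the other codes (difference 0.54).

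Yolk, lysosome and hatching gland transcripts leaned the other way, again with 1242FD. The yolk and lipoprotein score was 1.15 in 1242FD, -0.25 in 1242FE, -0.49 in 1242SD and 0.07 in 1242SE, against -0.91 to 0.85 in the other codes. Of 32 genes 26 were higher, with a median of 0.2. That median was -0.09 without 1242FD, -0.04 with the mitochondrial ribosomal RNA share as a covariate and 0.39 without code 1219. The fibrinogen chain genes fgb and fgg, which encode clotting proteins, had 41.9 to 97.7 and 26.7 to 73.4 in code 1242, against 17.5 to 71.1 and 20.4 to 56.3 in the other codes. The gene apoa4b.2 of the same list was among the 6 lower ones (difference -0.68). It had 43.05, 6.16, 7.89 and 6.31 in 1242FD, 1242FE, 1242SD and 1242SE, against 9.37 to 33.1 in the other codes. Lysosome and macrophage genes had a median of 0.28 with 17 of 21 higher. That median was -0.02 without 1242FD, 0.11 with the same covariate and 0.42 without code 1219. The acid phosphatase gene acp5a had 128 in 1242FD and 22.9 to 32.0 in the other 3 libraries of code 1242, against 11.2 to 88.0 in the other codes. The lysosomal membrane gene lamp1b had 14.5 to 24.0 in code 1242 and 7.43 to 21.3 in the other codes, which overlapped.

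The hatching gland makes the enzymes that digest the egg envelope. Its list had a median of 0.25, with 9 of 11 genes higher. That median was 0.05 without 1242FD, -0.02 with the mitochondrial ribosomal RNA share as a covariate and 0.57 without code 1219. The hatching enzyme gene he1.1 had 1280, 270, 429 and 318 in 1242FD, 1242FE, 1242SD and 1242SE, against 193 to 787 (median 258) in the other codes. For he1.2 the values were 1510, 378, 624.7 and 823, against 277 to 1090 (median 455) in the other codes. In both genes 1242FD was above every other library, and the 3 other libraries of code 1242 lay within the range of the other codes. The gene hce2l2 was among the 2 lower ones of the list (difference -0.73). It had 10.9, 0.59, 3.09 and 1.87 in the same order, against 1.51 to 13.3 in the other codes. List medians also differed by letter. With the 2 D libraries alone in code 1242 the hatching gland median was 0.68, and with the 2 E libraries alone it was -0.16. For ribosomal proteins these medians were 0.36 and -0.17, and for nuclear subunits of oxidative phosphorylation 0.36 and -0.28.

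**Figure D4:**
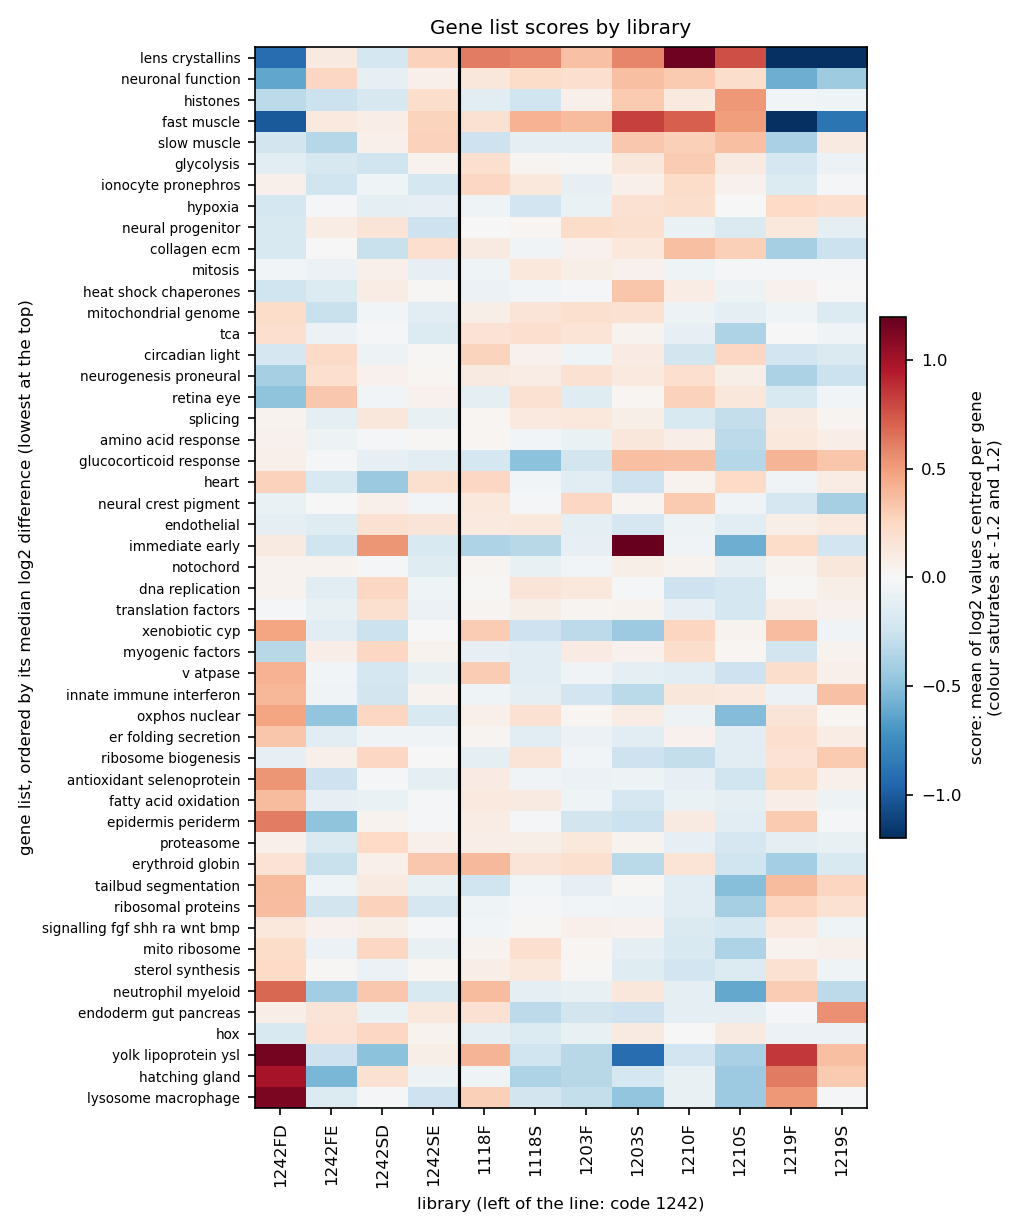
Scores of 50 gene lists (mean of log2 values centred per gene, colour) in the 12 libraries, code 1242 left of the black line, with lists ordered by their median difference. 1242FD shares low lens (-0.91) and fast muscle (-1.01) scores and high yolk (1.15) and hatching gland (0.99) scores with 1219F, whereas 1242FE, 1242SD and 1242SE do not.

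Ribosomal protein genes had 66 of 83 members higher with a small median of 0.1, beside 7253 of all 13680 genes that were higher. That median was -0.01 without 1242FD and -0.12 with the mitochondrial ribosomal RNA share as a covariate. The ribosomal protein score was 0.37, -0.22, 0.28 and -0.2 in 1242FD, 1242FE, 1242SD and 1242SE, against -0.4 to 0.26 in the other codes. The libraries of code 1242 thus sat on both sides of 0. Hox genes, which set position along the body axis, had 31 of 41 higher with a median of 0.14. This median lay between 0.06 and 0.23 under the alternatives. The Hox score was -0.18 in 1242FD, 0.17 in 1242FE, 0.25 in 1242SD and 0.04 in 1242SE, against -0.16 to 0.11 in the other codes. The score of 1242FD thus lay below every other library. None of the Hox genes was higher at an unadjusted p below 0.05. The 1 that reached it, hoxb13a, which acts at the posterior end of the axis, was at a difference of -0.82. Histone genes had 29 of 42 entries lower with a median of -0.2, and several of them are near-identical copies. The histone score was -0.31, -0.26, -0.19 and 0.21 in 1242FD, 1242FE, 1242SD and 1242SE, against -0.24 to 0.52 in the other codes. With the mitochondrial ribosomal RNA share as a covariate the histone median was -0.03. Genes of DNA replication had 25 higher and 24 lower, with a median of 0.0, so mcm6 did not stand for its list. The maintenance methylation factor gene uhrf1 had 78.6 to 151 in code 1242 and 131 to 210 in the other codes (difference -0.41). Of the 49 replication genes, mcm6 and uhrf1 were the 2 lower at an unadjusted p below 0.05, and 2 others were higher. These stand beside 1.28% lower and 1.76% higher over all genes. Mitosis genes had a median of -0.1 with 35 of 53 lower.

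Stress and redox genes held some of the smaller unadjusted p-values without a shared direction. The metallothionein gene mt2, which binds zinc and other metals, had 122, 88.3, 79.2 and 78.3 in 1242FD, 1242FE, 1242SD and 1242SE, against 26.6 to 96.5 (median 45.9) in the other codes. The groups overlapped only at the 2 libraries of code 1219, and the difference was 0.84 ± 0.29 (SE; limma adjusted p = 1.0). The autophagy receptor gene sqstm1 had 33.7, 22.3, 23.3 and 26.9, against 14.1 to 21.4 (median 16.8) in the other codes, with no overlap and a difference of 0.57 ± 0.22 (SE; limma adjusted p = 1.0). The glutathione transferase gene gsta.1 had 21.7 to 48.7 in code 1242 and 8.29 to 28.6 in the other codes (difference 0.68), and the catalase gene cat had 0.0 to 1.87 in code 1242 and 0.57 to 5.54 in the other codes (difference -1.02). Over the 52 antioxidant and selenoprotein genes the median was 0.07, or -0.07 without 1242FD, and 35 were higher. The DNA repair gene xpc had 32.9 to 47.8 in code 1242 and 40.2 to 60.5 in the other codes (difference -0.44).

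Chaperone genes had 26 of 39 lower and a median of -0.09. The chaperonin subunit gene cct8, which helps fold actin and tubulin, had 86.5, 100, 114 and 86.7 in 1242FD, 1242FE, 1242SD and 1242SE, against 109 to 164 (median 135) in the other codes. Only 1242SD reached the other codes' range (difference -0.47 ± 0.16, SE; limma adjusted p = 1.0). The co-chaperone gene dnajb1b had 3.82 to 9.34 in code 1242 and 6.24 to 36.6 in the other codes (difference -0.87). Matrix genes had 26 of 36 lower and a median of -0.1. That median was 0.11 with the mitochondrial ribosomal RNA share as a covariate and 0.08 with the E libraries alone. The fibronectin gene fn1b of this list had 9.61 to 19.4 in code 1242 and 13.2 to 33.7 in the other codes (difference -0.76). The basement membrane collagen gene col4a1 had 11.4 to 21.96 in code 1242 and 12.1 to 29.1 in the other codes (difference -0.51). Notochord genes had a median of 0.0. Their collagens parted, with col2a1a at 318 to 446 in code 1242 and 200 to 427 in the other codes (difference 0.43). The gene col8a1a had 3.04 to 11.4 in code 1242 and 1.99 to 44.3 in the other codes (difference -0.92). Among fed fathers' offspring alone the differences of col2a1a and col8a1a were 0.76 and -1.21, and among starved fathers' offspring 0.1 and -0.64.

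Among other metabolic and signalling genes, the peroxisomal fatty acid oxidation gene ehhadh had 0.69 to 1.4 in code 1242 and 1.89 to 6.25 in the other codes, with no overlap on 2 to 6 reads per library in code 1242 (difference -1.15). The xenobiotic-metabolizing gene cyp1a had 0.75 to 2.05 in code 1242 and 1.65 to 10.8 in the other codes (difference -1.18). The lists did not follow these 2 genes. Fatty acid oxidation genes had 24 of 42 higher with a median of 0.07, or -0.1 without 1242FD. Xenobiotic genes had 9 of 15 higher with a median of 0.02, or -0.01 without 1242FD. The growth factor gene bmp4 had 15.09 to 22.5 in code 1242 and 2.65 to 17.8 in the other codes (difference 0.77). Its low values came from both libraries of code 1210, at a mean of 4.18. Citric acid cycle genes had 22 of 28 lower with a median of -0.09, sterol synthesis genes 14 of 21 higher with a median of 0.12, and none of either list had an unadjusted p below 0.05.

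The comparison was repeated within each father group. These 2 comparisons share no library, but they draw on the same codes and may not be independent of each other. In offspring of fed fathers limma called 0 genes, with 304 (2.22%) at an unadjusted p below 0.05. There edgeR called 0 (255) and DESeq2 called 0 (224). Without 1242FE the 304 became 943, and without 1219F 542, with 0 called in both. In offspring of starved fathers limma called 0 genes, with 172 (1.26%) at an unadjusted p below 0.05. There edgeR called 0 (169) and DESeq2 called 1 (169), hist1h2a4. Leaving out 1 library moved the 172 to between 112 (without 1242SD) and 308 (without 1219S), with 282 without 1210S, and 0 were called in each. Of the 304 genes, 202 (66.4%) had the same sign in the other comparison, and of the 172 genes 107 (62.2%) did, beside 54.0% of all 13680 genes. Of all 13680 genes, 7 were at an unadjusted p below 0.05 in both, beside 2.22% and 1.26% in each alone, and all 7 had the same sign. Whether 7 is more than unrelated comparisons would share was not tested. Across genes, which are not independent replicates, the correlation of the differences was 0.11, or 0.2 over the 4114 genes with a mean of at least 20.

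Of the 50 lists, 28 had a median of the same sign in both father groups. Glycolysis had a median below 0 in both, while lens crystallins and fast muscle were at -0.45 and -0.36 in offspring of fed fathers, which include 1242FD, and at 0.02 and -0.04 in offspring of starved fathers. Erythroid genes had -0.11 among fed fathers' offspring and 0.28 among starved fathers' offspring. Whether the shift of code 1242 differed with the father's feeding was tested as an interaction. In limma with Benjamini-Hochberg adjustment 0 genes passed, 204 (1.49%) had an unadjusted p below 0.05, and edgeR (170) and DESeq2 (216) called 0 as well. Without 1242FE the 204 became 414, with 0 called. The smallest interaction p among named genes was that of smap2, a regulator of vesicle traffic, at 0.0035 (limma adjusted p = 1.0). Among starved fathers' offspring it had 5.49 and 7.24 in 1242SD and 1242SE, against 0.85 to 2.83 in the other codes. Among fed fathers' offspring it had 0.75 and 2.64 in 1242FD and 1242FE, against 2.37 to 6.28 in the other codes.

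**Figure D5:**
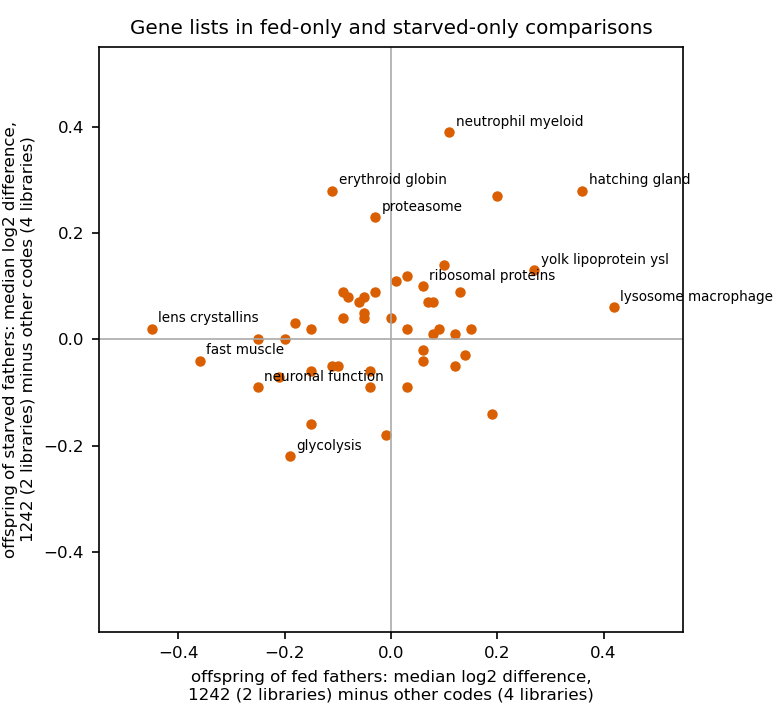
Median log2 difference of 50 gene lists, code 1242 minus the other codes, in offspring of fed fathers (x axis, 2 libraries minus 4) and in offspring of starved fathers (y axis, 2 libraries minus 4); each point is a list and some are labelled. Glycolysis lies below 0 on both axes (-0.19 and -0.22), while lens crystallins (-0.45 and 0.02) and lysosome and macrophage genes (0.42 and 0.06) depart from 0 mainly in offspring of fed fathers.

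Genes at an unadjusted p below 0.05 were spread over the genome. By chromosome their share ran from 1.34% on chromosome 24 (5 of 372 genes) to 5.26% on chromosome 16 (33 of 627), beside 3.04% over all genes. Chromosome 16 included the named genes itga10, tpi1b, pklr, stmn1b, vegfaa and pnisr. The 38 genes whose groups did not overlap lay on 19 chromosomes, with at most 4 on any of them.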

How the data were processed

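The authors deposited a table of 13680 genes with 1 column per library. Reads were aligned with STAR and analysed with edgeR on GRCz11, per the submitters' processing notes, with no settings named. The deposited signal of each library is a read count divided by a size factor, judged from the values: every value came out as a whole multiple of 1 step per library within 0.03 of a read (100.0% of values). The reads behind the values were recovered in this way and total 2950740 to 3934765 per library. The filter that decided which genes are listed was not stated. The authors' deposited log2 fold change and p-value (FDR) columns compare offspring of starved and fed fathers and were not used.

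Libraries were grouped by the code in the labels. The main test was limma 3.58.1 in R 4.3.3 with a mean trend, on log2(value + 1), with terms for father group and code 1242 and Benjamini-Hochberg adjustment over all genes at 0.05 (9 residual degrees of freedom). The same contrast was fitted in each father group alone, and an interaction was tested. Alternatives were edgeR 4.0.16, DESeq2 1.42.0 and limma-voom on recovered reads, other pseudocounts, filters, scalings and blocks, and leaving out libraries or codes. Only the main limma fit was tested on simulated data. The alternatives that leave out 1219F, 1219S and 1242FD, or 1203S and 1242SD, were chosen after seeing the data.

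The members and gene lists were chosen with earlier results of these data known. Named genes were the 8 with the smallest unadjusted p on each side, since no gene passed, up to 4 members per list with the smallest p and the smallest interaction p, leaving out clone-style names (1814 genes). Some further genes, eno1a and pklr among them, were named outside this rule. Results of 1 gene list and 1 of its members are not reported here. Replicate numbers 5 and 6 belong to code 1242 alone. Intervals on reads cover counting error only.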

Additional observations from a re-analysis of the deposited data

Results flagged for a closer look

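Dixon's criterion was applied to the list scores and to the 8 named genes with the smallest p on each side. Other named genes were not screened. By this criterion, met by chance in about 1 in 20, 10 of 134 groups held a library far from the rest of its group. In code 1242 these were ccng1 in 1242FD at 232, cacna1ha in 1242FE at 3.52, and 3 list scores in 1242FD: lysosome and macrophage genes at 1.13, fast muscle genes at -1.01 and fatty acid oxidation genes at 0.38. In the other codes these were aebp1 in 1219F at 27.7, ldha in 1210S at 69.9, the chaperone score in 1203S at 0.33, the immediate early gene score in 1203S at 1.23, and the score of nuclear oxidative phosphorylation genes in 1210S at -0.52. Their causes were not tested.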

How the results depend on the processing

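The count of called genes stayed at 0 in the comparison of code 1242 with the other codes under all alternatives except DESeq2, which called 1 (stard14, difference 1.58, adjusted p = 0.00642), and leaving out 1219F, 1219S and 1242FD together, where limma called 1 lower gene. That gene was tcnbb, of the cobalamin carrier family, with a difference of -2.32 and an adjusted p of 0.00735. It had 2.93 to 14.2 in code 1242 and 2.41 to 39.4 in the other codes, low in both libraries of code 1219, and over its alternatives the adjusted p ran from 0.00735 to 1.0. DESeq2 called 1 gene in offspring of starved fathers (hist1h2a4, adjusted p = 0.00141). In these cases the cause was not tested. Leaving out each library in turn gave 0 calls in all 4 comparisons (0 to 0 genes). For the mitochondrial ribosomal RNA share it gave differences of 5.22 to 9.68 percentage points, and the exact permutation p, over single libraries, was 0.0267 without 1242SE. No paired analysis with a fixed block was possible because code 1242 and the other codes share no replicate number. A random replicate block (correlation 0.203) called 0 genes and left 228 at an unadjusted p below 0.05. That number, 416 in the reported comparison, was 94 with D and E averaged, 884 with the D libraries alone, 397 with the E libraries alone, 747 without code 1219 (smallest adjusted p 0.0532) and 813 with the mitochondrial ribosomal RNA share as a covariate (smallest adjusted p 0.0535). The difference of he1.1 changed sign to -0.04 with the E libraries alone. That of smap2 ran from -0.11 (without 1242SE) to 0.8 with 1 library left out, and changed to -0.07 with the D libraries alone and -0.06 without 1203S and 1242SD. No other named gene changed sign, but ebf3a, apoa4b.2 and hce2l2 were not followed over the alternatives. Of 50 list medians, 20 changed sign without 1242FD, 21 with the mitochondrial ribosomal RNA share as a covariate and 23 with the E libraries alone. The medians of glycolysis, Hox, histone, hypoxia, chaperone, mitosis, and ionocyte and pronephros genes kept their sign throughout. Where 1 library was left in an arm, it was assumed to vary like the others. Low genes are limited by depth, at a few reads per library. No scaling tried moved the median of all genes by over 0.1 (log2).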
